A study of Homo sapiens with 6 samples.

Results

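BCR-ABL signaling and its STAT5 targets are represented here by 10 genes out of the 60671 in the count files: BCR, ABL1, CRKL, STAT5A, STAT5B, PIM1, SOCS2, CISH, MYC and BCL2L1. They were chosen by name, through the Ensembl identifier that GENCODE pairs with each symbol, and all 10 passed the filter on low counts that left 12364 genes for testing. The cells were K562, a chronic myeloid leukemia line, in the form of 1 clone that carries a doxycycline-inducible fusion of a DNA methyltransferase to lamin B1 (Flag-NLS-M.CviPI-Lamin-B1). The DMSO group was 3 cultures given 0.1% DMSO for 72 hours, and the EZH2i group was 3 cultures given 1 µM GSK343, an inhibitor of the histone methyltransferase EZH2, for 72 hours. Both groups also received doxycycline at 1 µg/mL for the last 24 hours, so every library came from cells with the fusion induced, and the values describe 1 clone. RNA was read from the 3′ ends of polyadenylated transcripts, and the question the comparison addresses is which transcripts differ in level after EZH2 inhibition.

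K562 cells carry the Philadelphia translocation, which joins the 5′ part of BCR to the ABL1 kinase and yields a constitutively active tyrosine kinase. BCR-ABL phosphorylates adaptors such as CRKL and activates RAS-MAPK, PI3K-AKT and STAT5 signaling, and phosphorylated STAT5 enters the nucleus and activates genes for survival, growth and feedback inhibition. CISH, SOCS2 and PIM1 are commonly read as outputs of STAT5 activity in such cells, although the activity itself depends on phosphorylation, which was not measured here.

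In K562 the joint lies between exon 14 of BCR and exon 2 of ABL1, and the exon ends that meet there are shown because they define the fusion transcript. Both stretches are coding, come from the plus strand of hg38, and are given as the reference sequence. The stretch of BCR is the last 30 bases of exon 14 of 23, at chr22:23290384-23290413, and that of ABL1 is the first 30 bases of exon 2 of 11, at chr9:130854064-130854093.
BCR exon 14 end: actcagccactggatttaagcagagttcaa
ABL1 exon 2 start: aagcccttcagcggccagtagcatctgact
A 3′ read lies far from this joint. The fusion transcript ends in the 3′ end of ABL1, so reads counted to ABL1 cannot be divided between the fusion and unrearranged ABL1, and the 3′ end of BCR belongs to transcripts that do not continue into ABL1.

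The libraries held 6327544, 8711246 and 8987768 reads on genes in DMSO 1 to 3 and 7273739, 7913358 and 6926167 in EZH2i 1 to 3. Levels are given as CPM, counts scaled to a common library size by TMM. Counts from a 3′ library do not grow with transcript length, so levels are compared between genes without a length term, and differences in where transcripts end were not assessed. EZH2i 1 stood apart from the other libraries of its group. Its counts differed from those of EZH2i 2 and EZH2i 3 by a chi-square of 10.8 and 12.7 for each degree of freedom, against 4.56 between EZH2i 2 and EZH2i 3 and 6.42 to 8.46 among the DMSO libraries. In EZH2i 3, 12.7% of the listed reads lay outside annotated features, against 7.43% to 8.51% in the other 5 libraries, and the part of this in the results was not tested.

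Markers of the line were present in every library. All 9 erythroid leukemia markers passed the filter, with TFRC, the transferrin receptor, the most abundant at a mean of 292 CPM. HBZ and HBG2, embryonic and fetal globins, were higher in EZH2i with log2 fold changes of 1.15 and 0.58 (edgeR adjusted p = 6.14e-05 and 0.0251). Markers of other cell types were mostly at or near 0, with no read in any library for MS4A1, CSF1R, KRT5 and VWF. Of 4 epithelial markers only EPCAM passed the filter, at 427 to 703 reads per library and a log2 fold change of -0.28 (edgeR adjusted p = 0.156), and CDH1 had at most 2 reads. The epithelial markers summed to 76.2, 83.5 and 72.9 CPM in DMSO and 64.3, 66.7 and 61.3 in EZH2i. Of 3 endothelial markers only PECAM1 passed, at 108 to 165 reads per library, and their sums were 19.2, 13.4 and 18.8 CPM in DMSO and 19.1, 16.4 and 15.5 in EZH2i. Of 6 lymphoid markers 2 passed the filter, and CD3D was higher in EZH2i (log2 fold change 0.46, edgeR adjusted p = 0.0309) while CD3E never exceeded 8 reads. The lymphoid markers summed to 62.7, 66.4 and 75.0 CPM in DMSO and 105, 85.4 and 89.2 in EZH2i. Of 5 mature myeloid markers 2 passed, and LYZ was higher in EZH2i (0.62, edgeR adjusted p = 0.0426), with sums of 18, 15.3 and 12.3 CPM in DMSO and 24.5, 22.2 and 21.9 in EZH2i, CSF1R at 0 and MPO at no more than 1 read. Of 4 fibroblast markers only COL1A1 passed. It was higher in EZH2i (1.91, edgeR adjusted p = 0.00424), at 8, 11 and 19 reads in DMSO and 30, 49 and 55 in EZH2i. With DMSO 1 at 8 reads, COL1A1 passed the filter through the EZH2i libraries, so nothing is drawn from its call. It was not tested with at least 10 reads in every library. The fibroblast markers summed to 1.41, 1.90 and 2.84 CPM in DMSO and 5.69, 6.56 and 9.02 in EZH2i, and COL3A1 had at most 1 read in a library. The call of HBG2 was lost without DMSO 1, DMSO 2 or DMSO 3, that of CD3D without any of those or EZH2i 1, and that of LYZ without any 1 of the 6 libraries. The part of other cells in the results below was not tested.

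Across all tested genes, 527 passed the threshold of an adjusted p of 0.05, 413 of them higher and 114 lower in EZH2i, which is 4.26% of those tested (3.34% higher and 0.922% lower). Among the 10 genes 1 passed, BCL2L1, which was higher. The median log2 fold change of the 10 was 0.09, with 6 above 0 and 4 below, beside a median of -0.00021 for all tested genes. It did not keep its sign, and ran from -0.03 without DMSO 3 to 0.19 without DMSO 1. The 3 EZH2i libraries lay wholly above or wholly below the 3 DMSO libraries for 2 of the 10, BCL2L1 and STAT5B, and for 24.5% of all tested genes. With 10 genes, neither count sets them apart from the rest.

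**Figure D1:**
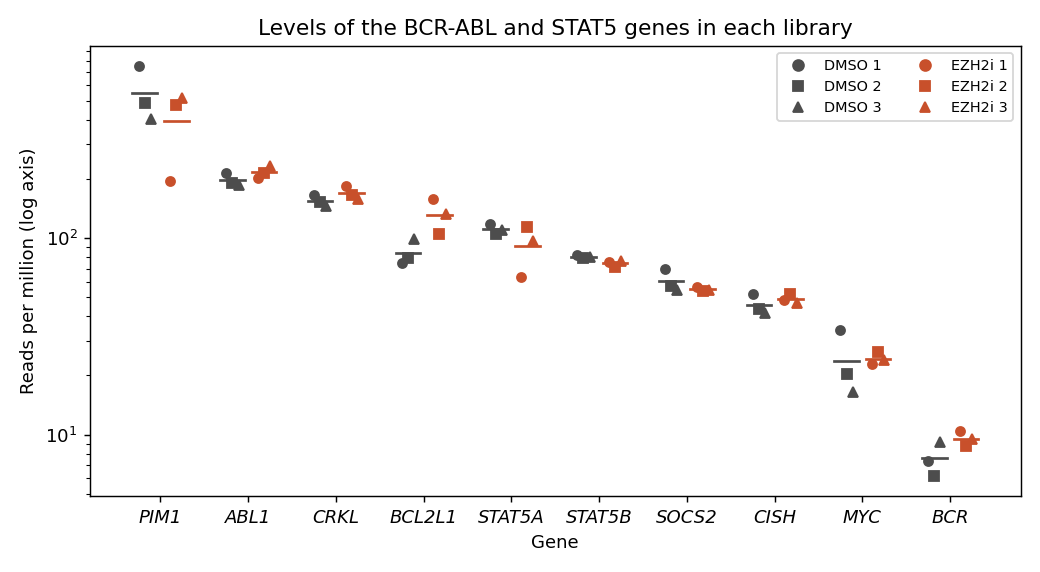
CPM of each of the 10 genes (log axis) in every library, with genes in order of mean level, 1 symbol per library and a bar at each group's mean. PIM1 and BCR lie at the ends of the range, and for PIM1 and STAT5A the circle of EZH2i 1 is below the other 5 libraries.

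In DMSO the mean levels ran from PIM1 at 546 ± 179 CPM (SD, n = 3) through ABL1 at 197 ± 15.3, CRKL at 154 ± 9.85, STAT5A at 111 ± 6.87, BCL2L1 at 84.3 ± 13.0, STAT5B at 80.4 ± 1.22, SOCS2 at 60.2 ± 7.94, CISH at 45.6 ± 5.46 and MYC at 23.6 ± 9.17 to BCR at 7.57 ± 1.52. The ranges of BCL2L1 and STAT5B overlapped in that order, and those of every other pair of neighbours did not. In EZH2i the order was the same except that BCL2L1, at 132 ± 26.8 CPM, stood above STAT5A, at 91.3 ± 25.3. There the ranges of PIM1 and ABL1, of CRKL and BCL2L1, of BCL2L1 and STAT5A, and of STAT5A and STAT5B overlapped.

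The fusion partners differed widely in level from each other. ABL1, the kinase moiety, had 214, 191 and 185 CPM in DMSO and 202, 214 and 234 in EZH2i. The groups overlapped, and the log2 fold change was 0.14 (SE 0.10, 95% interval -0.08 to 0.36, edgeR adjusted p = 0.509), or 0.08 without EZH2i 3 (adjusted p = 0.792). BCR, which supplies the oligomerization domain of the fusion, had 7.35, 6.17 and 9.19 CPM in DMSO and 10.4, 8.70 and 9.45 in EZH2i. DMSO 3 lay among the EZH2i libraries, and the log2 fold change of 0.33 (SE 0.21, 95% interval -0.12 to 0.77, edgeR adjusted p = 0.419) rested on 47 to 81 reads per library. It was 0.19 without DMSO 2 (adjusted p = 0.741) and 0.50 without DMSO 3 (adjusted p = 0.281). Of the 9 BCR pseudogenes named BCRP, 1 had a read, so few uniquely placed reads went to those copies. Reads that aligned to several places were not counted.

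Within a library, ABL1 had 29.1, 30.9 and 20.2 reads for each BCR read in DMSO and 19.3, 24.6 and 24.8 in EZH2i. The ratio was thus 19.3 or more in all 6 libraries and its groups overlapped. Its log2 mean differed by -0.21 between EZH2i and DMSO (two-sided exact permutation test, p = 0.4, where 3 against 3 cannot go below 0.1). The difference was -0.40 without DMSO 3 (exact permutation p = 0.1). It was -0.09 without DMSO 2 and -0.09 without EZH2i 1 (exact permutation p = 0.9 each).

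Of the genes around the partners, 3 of 9 tested near ABL1 and 1 of 7 near BCR were called, all higher, where 3.34% of all tested genes were called higher. These are few genes, and the difference in share was not tested. Within 500 kb of ABL1, 9 of 26 other annotated genes were tested, and AIF1L, FIBCD1 and NCS1 were higher in EZH2i, with log2 fold changes of 2.10 (SE 0.17, edgeR adjusted p = 4.77e-06), 1.45 (SE 0.23, edgeR adjusted p = 0.00156) and 1.3 (SE 0.27, edgeR adjusted p = 0.0114). AIF1L encodes an actin-binding protein and rose from 6.78 ± 1.23 to 29.2 ± 3.0 CPM (SD, n = 3). It lies 209 kb beyond the 3′ end of ABL1, and FIBCD1 lies 14.8 kb beyond it. Within 500 kb of BCR, 7 of 90 other genes were tested, and GNAZ, a G protein alpha subunit gene 54.7 kb from BCR, was higher (1.17, SE 0.30, edgeR adjusted p = 0.0339). The call of NCS1 was lost without DMSO 1, DMSO 3 or EZH2i 2 (edgeR adjusted p up to 0.0536), and that of GNAZ without DMSO 1, DMSO 2, DMSO 3, EZH2i 2 or EZH2i 3 (up to 0.112) and with DESeq2. No tested neighbour of either partner was called lower.

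CRKL is the adaptor whose phosphorylation is used in the clinic as a readout of BCR-ABL activity. It had 165, 152 and 145 CPM in DMSO and 184, 166 and 157 in EZH2i. The groups overlapped, and the log2 fold change was 0.13 (SE 0.10, 95% interval -0.08 to 0.35, edgeR adjusted p = 0.517), or 0.07 without EZH2i 1 (adjusted p = 0.753). All 10 adaptors of the list that holds CRKL were tested and none was called. The list's most abundant genes over all 6 libraries were GRB2, which links tyrosine kinases to RAS, at 171 ± 6.66 CPM under DMSO and 185 ± 18.4 under EZH2i (SD, n = 3), and CBL, a ubiquitin ligase, at 153 ± 16.6 and 182 ± 27.0, where CRKL had 154 ± 9.85 in DMSO. Without EZH2i 1, 2 adaptors were called, CBL higher and GAB2 lower, and GAB2 was also called lower with DESeq2 and with no filter on low counts. These names were picked out after their values were seen.

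STAT5A and STAT5B are the closely related transcription factors that the fusion kinase activates, encoded side by side on chromosome 17. STAT5A had 118, 105 and 110 CPM in DMSO and 63.7, 113 and 96.7 in EZH2i. EZH2i 1 was the low sample and EZH2i 2 lay within the DMSO range. The log2 fold change was -0.28 (SE 0.15, 95% interval -0.60 to 0.04, edgeR adjusted p = 0.335), and it was -0.07 without EZH2i 1 (edgeR adjusted p = 0.774) and -0.47 without EZH2i 2 (adjusted p = 0.0958).

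STAT5B had 81.8, 79.4 and 80.1 CPM in DMSO and 75.6, 71.0 and 76.8 in EZH2i. Every EZH2i library lay below every DMSO library, by a small margin. The log2 fold change of -0.11 (SE 0.10, 95% interval -0.33 to 0.10) did not pass the test (edgeR adjusted p = 0.598). STAT5B reads numbered 0.69, 0.76 and 0.73 for each STAT5A read in DMSO and 1.19, 0.63 and 0.79 in EZH2i. EZH2i 1 alone had more STAT5B than STAT5A reads. The log2 ratio was 0.21 higher in EZH2i (two-sided exact permutation test, p = 0.7), and without EZH2i 1 the difference was -0.043 (exact permutation p = 0.8). The exons of STAT5A, on the plus strand, and STAT5B, on the minus strand, overlap at their 5′ ends, while their 3′ ends, where the reads were taken, lie at opposite sides of the locus, at position 42311943 and position 42199176 of chromosome 17 (hg38).

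CISH encodes a SOCS-family protein that binds activated cytokine receptors and limits STAT5 signaling. Its promoter is shown because, of the 8 among the 10 genes found in the RefSeq promoter table (GRCh38.p14), it was the one with a match to the palindromic STAT-type motif TTCNNNGAA. The motif reads the same on both strands, and the windows ran from 250 bases before to 50 bases after each start. The 160 bases printed lie at chr3:50611865-50612024 on the minus strand, upstream of the start, with matches in capitals.
CISH promoter: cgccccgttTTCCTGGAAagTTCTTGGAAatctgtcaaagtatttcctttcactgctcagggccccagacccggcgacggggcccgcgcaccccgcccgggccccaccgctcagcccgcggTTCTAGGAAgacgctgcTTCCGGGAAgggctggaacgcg
The 4 matches begin at positions -241, -230, -129 and -112 from the start. Among 35093 windows, 7.66% held at least 1 match and 0.0199% at least 4. Of the other 147 pathway genes 118 were in the table and 5 held a match. The motif and the printed window were chosen after the values were seen, and a match is a description of letters, not of binding.

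**Figure D2:**
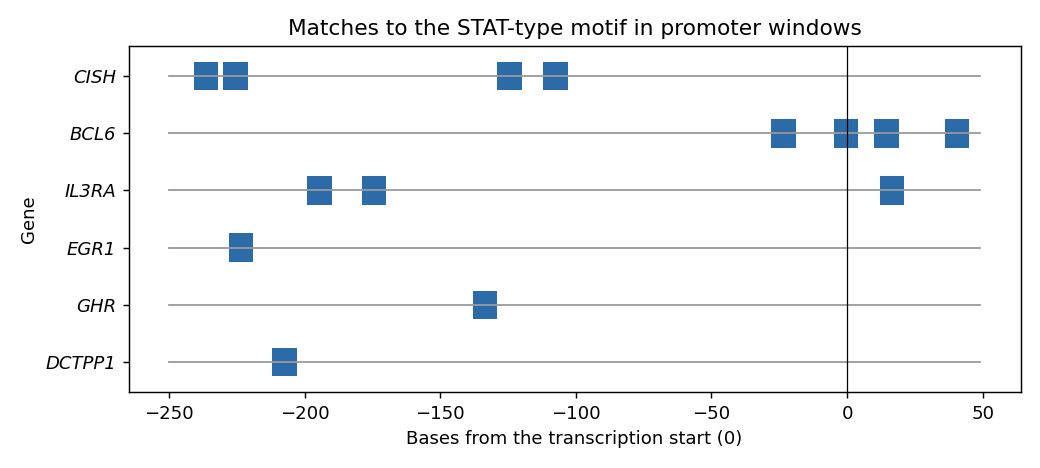
Positions of TTCNNNGAA matches in promoter windows, as bases from the transcription start, for the pathway genes with any match; each line is 1 window and each block 1 match. CISH and BCL6 have 4 matches each, those of CISH all upstream of the start, IL3RA has 3, and EGR1, GHR and DCTPP1 have 1 each.

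CISH had 51.8, 43.6 and 41.4 CPM in DMSO and 48.4, 52.1 and 47.0 in EZH2i. DMSO 1 lay among the EZH2i libraries, and the log2 fold change was 0.11 (SE 0.12, 95% interval -0.14 to 0.37, edgeR adjusted p = 0.665). It ran from 0.05 without DMSO 3 to 0.21 without DMSO 1 (adjusted p = 0.902 and 0.477). BCL6, a transcriptional repressor and the other gene with 4 matches, had 6.50 ± 1.78 CPM under DMSO and 4.54 ± 0.49 under EZH2i (SD, n = 3), with a log2 fold change of -0.51 (SE 0.26, edgeR adjusted p = 0.297). Exons of CISH also overlap those of MAPKAPK3 on the opposite strand, at 40.5 CPM, and the strand setting of the counting is not given in the sources used here.

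SOCS2, a further feedback inhibitor of cytokine signaling, had 69.3, 57.1 and 54.4 CPM in DMSO and 56.3, 54.1 and 54.6 in EZH2i. DMSO 1 was high and the other 5 libraries lay between 54.1 and 57.1. The log2 fold change was -0.13 (SE 0.12, 95% interval -0.38 to 0.12, edgeR adjusted p = 0.604). Without DMSO 1 it was -0.02 (adjusted p = 0.958), and without DMSO 3 it was -0.20 (adjusted p = 0.464). Its antisense gene SOCS2-AS1, whose exons overlap, was at 4.46 CPM.

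PIM1, a serine/threonine kinase that promotes survival, was the most abundant of the 10 genes and the most variable between libraries. It had 748, 485 and 405 CPM in DMSO and 195, 474 and 515 in EZH2i. DMSO 1 was the highest library and EZH2i 1 the lowest, and the other 4 lay between 405 and 515, so the groups overlapped. The log2 fold change was -0.47 (SE 0.26, 95% interval -1.01 to 0.08, edgeR adjusted p = 0.338). With 1 library left out it ran from -0.70 (without EZH2i 3) to -0.14 (without EZH2i 1, adjusted p = 0.713), with -0.17 without DMSO 1 (edgeR adjusted p = 0.816). With no filter on low counts, edgeR called PIM1 lower at -0.49 (SE 0.11, adjusted p = 0.000554), over a range of adjusted p from that value to 0.816 among the alternatives.

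The other PIM kinases and MCL1, named after their values were seen, were low in the same library. PIM2 had 324, 266 and 341 CPM in DMSO and 150, 347 and 377 in EZH2i. PIM3 had 127, 122 and 131 CPM in DMSO and 80.7, 126 and 130 in EZH2i. MCL1, an antiapoptotic BCL2 relative, had 267, 251 and 231 CPM in DMSO and 130, 258 and 247 in EZH2i. For all 3, EZH2i 1 was the lowest of the 6 libraries. None was called, and without EZH2i 1 the log2 fold changes of PIM2, PIM3 and MCL1 were 0.23, 0.017 and 0.019, of the opposite sign to the values of -0.09, -0.17 and -0.24 with it.

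**Figure D3:**
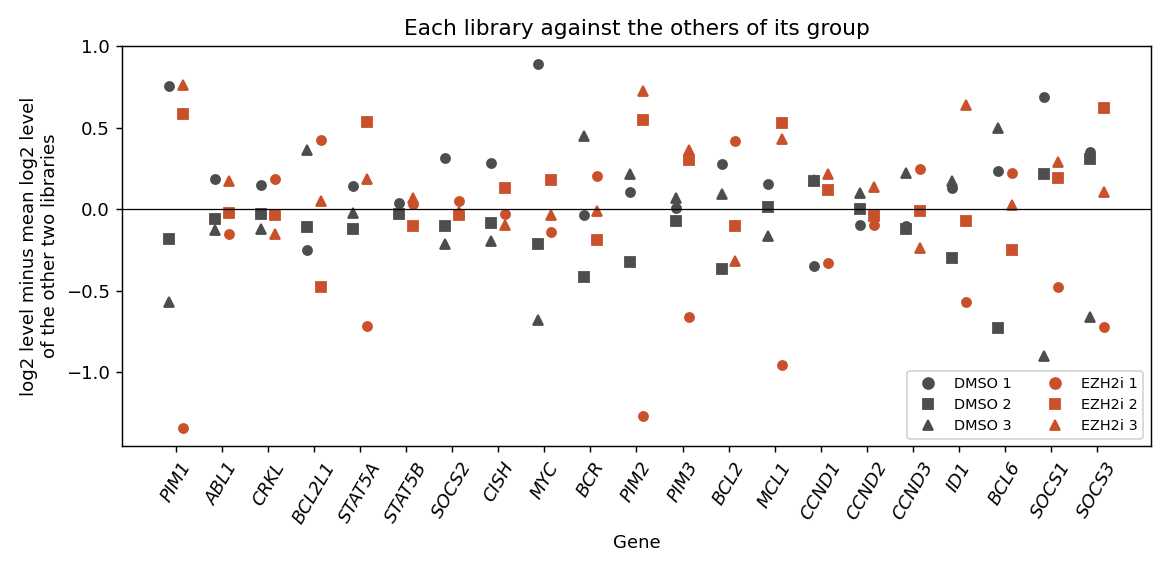
For the 10 genes and the other tested STAT5 targets, the log2 level in each library minus the mean log2 level in the other two libraries of its group. The circles of EZH2i 1 lie lowest for PIM1 at -1.34 and PIM2 at -1.27, while those for SOCS2 and CISH are near 0.

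Among these 21 genes, 7 were more than 0.5 lower on the log2 scale in EZH2i 1 than in the other two EZH2i libraries and 0 were more than 0.5 higher. Over all tested genes the shares were 9.50% lower and 7.04% higher in EZH2i 1. They were 6.33% and 4.89% in DMSO 1, 5.04% and 6.55% in DMSO 2, and 5.65% and 5.56% in DMSO 3. In EZH2i 2 they were 6.55% and 4.58%, and in EZH2i 3 they were 4.58% and 7.78%. The comparison for EZH2i 2 and EZH2i 3 includes EZH2i 1 in its mean. Of the same 21 genes the numbers lower and higher by that margin were 0 and 3 in DMSO 1, 1 and 0 in DMSO 2, 4 and 0 in DMSO 3, 0 and 5 in EZH2i 2, and 0 and 3 in EZH2i 3. EZH2i 1 had 0.39 times the PIM1 level and 0.61 times the STAT5A level of the other two EZH2i libraries, and 1.04 times their SOCS2 level and 0.98 times their CISH level. The STAT5 targets thus did not move as 1 group in that library.

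MYC, the growth-promoting transcription factor, had 33.9, 20.4 and 16.5 CPM in DMSO and 22.8, 26.4 and 23.9 in EZH2i. The DMSO libraries spanned the EZH2i libraries on both sides. The log2 fold change was 0.06 (SE 0.20, 95% interval -0.36 to 0.49, edgeR adjusted p = 0.903), and it turned to -0.03 without DMSO 2 and -0.14 without DMSO 3, and was 0.40 without DMSO 1 (adjusted p = 0.260).

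BCL2L1 encodes the antiapoptotic protein BCL-XL and, by splicing, a shorter proapoptotic form, which 3′ reads do not separate. The gene lies on the minus strand of chromosome 20, at chr20:31664452-31723989 (hg38). It had 74.4, 79.4 and 99.0 CPM in DMSO and 158, 104 and 133 in EZH2i, from 476 to 1166 reads per library. All 3 EZH2i libraries lay above all 3 DMSO libraries, with the nearest values, 99.0 in DMSO 3 and 104 in EZH2i 2, close together. The level was 1.56-fold higher in EZH2i (95% interval 1.27 to 1.92), a log2 fold change of 0.64 (SE 0.14, edgeR adjusted p = 0.0167). Without EZH2i 1, the highest library, it was 0.49 (edgeR adjusted p = 0.0264). The call was lost without DMSO 1 (0.56, edgeR adjusted p = 0.104) and without DMSO 2 (0.60, edgeR adjusted p = 0.0952), in a range of adjusted p from 4.16e-05 to 0.104 over the alternatives.

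**Figure D4:**
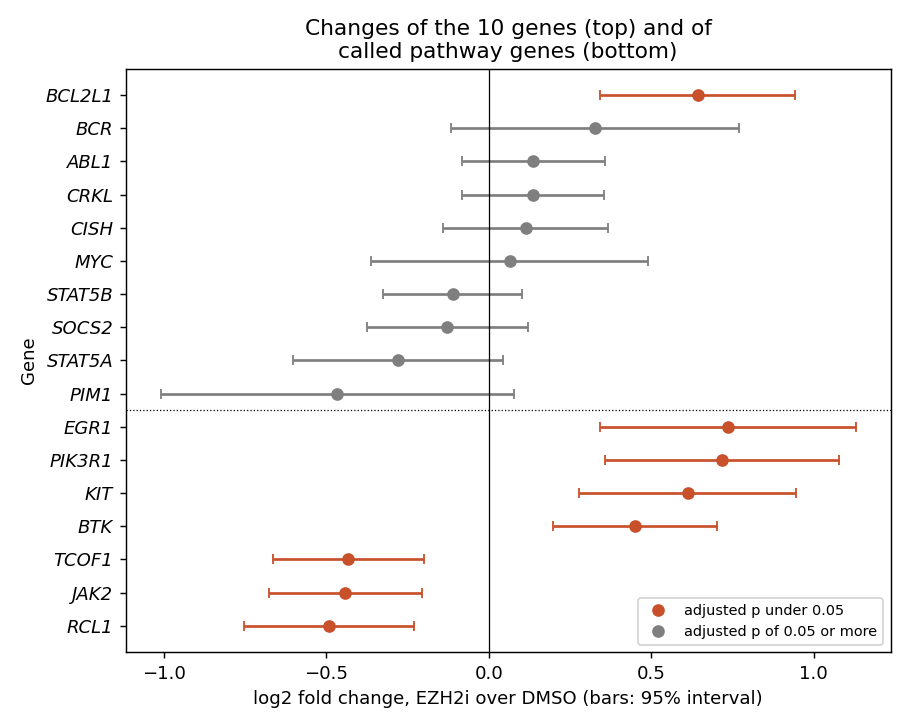
Log2 fold change of EZH2i over DMSO with its 95% interval, for the 10 genes above the dotted line and for the called genes of the wider pathway lists below it. Of the 10 only BCL2L1, at 0.64, has an adjusted p under 0.05, and the interval of PIM1, from -1.01 to 0.08, is the widest.

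For each gene, the tested gene with the most similar log2 level over the 6 libraries was found by Pearson's r, as a description. They were DESI2 for PIM1 (r = 0.995), RHOH for ABL1 (r = 0.992), TRAPPC2 for CRKL (r = 0.998), PRIMPOL for STAT5A (r = 0.998) and MCEE for STAT5B (r = 0.983). For the others they were APIP for SOCS2 (r = 0.992), PTX3 for CISH (r = 0.990), SLC26A11 for MYC (r = 0.979), APOBEC3C for BCR (r = 0.995) and MARVELD1 for BCL2L1 (r = 0.994). None of these pairs joined 2 of the 10 genes. Each is the highest of the correlations with all other tested genes, over 6 libraries. MARVELD1 was the one that was itself called, higher in EZH2i with a log2 fold change of 0.85 (edgeR adjusted p = 0.0320), a call lost without DMSO 1, DMSO 2, EZH2i 1 or EZH2i 3.

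The wider pathway lists held 157 distinct genes, of which 137 were tested, 5 were called higher and 3 lower in EZH2i. That is 5.84%, beside 4.26% of all tested genes, and the median log2 fold change was -0.01 (-0.04 without EZH2i 2 to 0.02 without EZH2i 1). Without EZH2i 1, 14 were called, 10 higher and 4 lower, and 6 of these were among the 8. The number called was 1 without DMSO 1 and 0 without DMSO 2. It was 4 without DMSO 3 and 4 without EZH2i 2, of which 3 each time were among the 8, and 4 without EZH2i 3, all among the 8. Over all tested genes the number called also moved, to 536 without EZH2i 1 (4.20%), 213, 209 and 240 without DMSO 1, 2 and 3 (1.67%, 1.65% and 1.89%), 399 without EZH2i 2 (3.16%) and 429 without EZH2i 3 (3.38%).

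**Figure D5:**
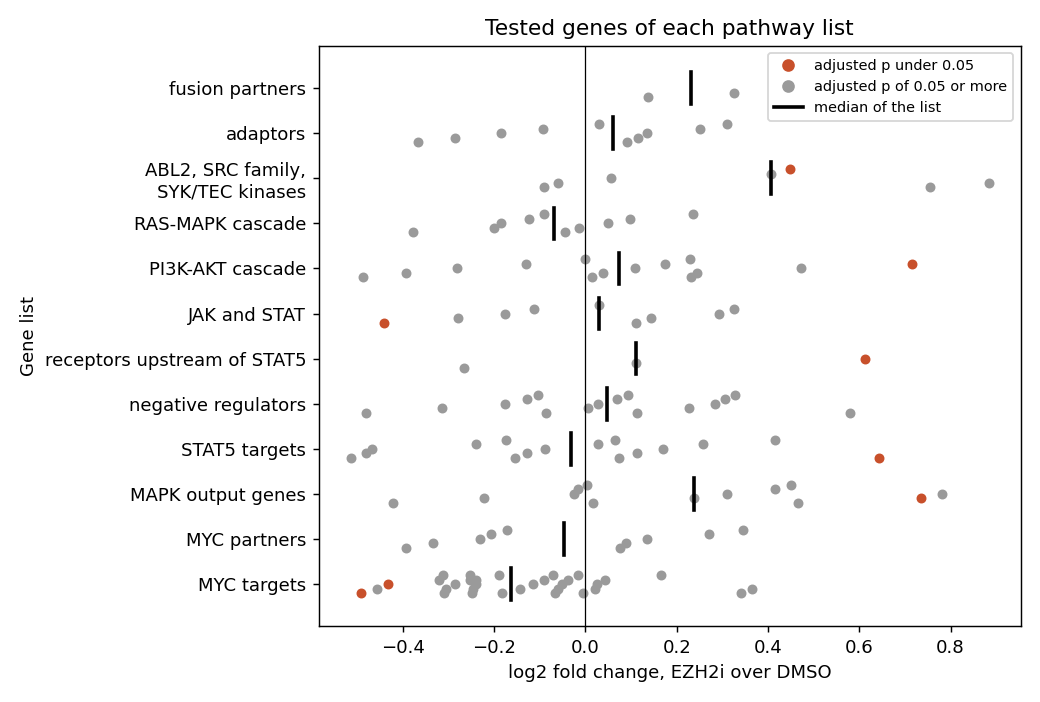
Log2 fold change of EZH2i over DMSO for each tested gene of the 12 pathway lists, with 1 point per gene, called genes in orange and a black bar at each list's median. Medians lie between -0.16 for the MYC targets and 0.41 for the ABL2, SRC family and SYK/TEC kinases, and 8 different genes are called.

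The kinases next to the fusion kinase were ABL2, SRC family members, SYK and BTK. Of 10, 7 were tested, 1 was called, and the median log2 fold change was 0.41. BTK, a cytoplasmic tyrosine kinase of the TEC family, had 49.6, 41.0 and 46.6 CPM in DMSO and 63.9, 67.1 and 55.9 in EZH2i. All EZH2i libraries were above all DMSO libraries, with a log2 fold change of 0.45 (SE 0.12, edgeR adjusted p = 0.0414). The call was lost without DMSO 1, DMSO 2, DMSO 3 or EZH2i 2, with an adjusted p of up to 0.189, and with DESeq2. Without EZH2i 1, 2 of these kinases were called, BTK and ABL2, both higher. FYN was called higher with no filter on low counts (0.86, adjusted p = 0.0261) and with the replicate term. LYN, the most abundant, was at 227 ± 5.83 CPM under DMSO and 218 ± 25.5 under EZH2i, followed by YES1 at 83.1 ± 11.7 and 77.9 ± 11.9 (SD, n = 3). FGR had no read in any library, and LCK had at most 3, the number taken as the floor.

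In the RAS-MAPK cascade all 10 genes were tested and none was called, with a median log2 fold change of -0.07 (-0.13 to -0.03 with 1 library left out). With no filter on low counts NRAS, a RAS gene, was called lower (-0.40, adjusted p = 0.0458). MAP2K2, a kinase of the cascade, was at 226 ± 19.4 CPM under DMSO and 212 ± 26.9 under EZH2i (SD, n = 3). Of the 17 genes that report MAPK output 13 were tested, with a median of 0.24 and 1 called, and the median was 0.13 with at least 10 reads in every library. EGR1, an immediate early transcription factor, had 99.0, 70.9 and 140 CPM in DMSO and 182, 134 and 200 in EZH2i. DMSO 3 was above EZH2i 2, so the groups overlapped, and the log2 fold change was 0.74 (SE 0.19, edgeR adjusted p = 0.0334). The call was lost without DMSO 1, DMSO 2 or EZH2i 3, with an adjusted p of up to 0.157, and with DESeq2 (0.256). IER3, an early response gene, was at 121 ± 3.65 CPM under DMSO and 150 ± 26.0 under EZH2i (SD, n = 3) and was not called with all libraries (0.31, adjusted p = 0.155), but was called without EZH2i 1 (0.42, adjusted p = 0.0250). Without EZH2i 1, 4 of 14 tested output genes were called, all higher: EGR1, IER3, PHLDA1 (0.89, adjusted p = 0.0242) and CCND1 (0.52, adjusted p = 0.0318). In that setting 4.20% of all tested genes were called. The number of output genes called was 1 without DMSO 3 or EZH2i 2. It was 0 without DMSO 1, DMSO 2 or EZH2i 3, and 0 with DESeq2. PHLDA1 was also called with no filter and with the replicate term.

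In the PI3K-AKT cascade all 14 genes were tested and 1 was called, with a median log2 fold change of 0.07 (0.01 without EZH2i 3 to 0.14 without EZH2i 1). PIK3R1, the regulatory subunit that binds phosphotyrosines, had 13.4, 17.3 and 21.4 CPM in DMSO and 33.9, 26.0 and 26.8 in EZH2i. All EZH2i libraries were above all DMSO libraries, with a log2 fold change of 0.72 (SE 0.17, edgeR adjusted p = 0.0248). The call was lost without DMSO 1, DMSO 2 or EZH2i 1, with an adjusted p of up to 0.121. Without EZH2i 1 the 1 gene called was MTOR, lower (-0.45, adjusted p = 0.0340). INPP5D, an inositol phosphatase gene, was called higher without EZH2i 2 (0.59, adjusted p = 0.0385), and both were called with no filter. AKT2 was the most abundant, at 303 ± 54.8 CPM under DMSO and 303 ± 14.1 under EZH2i, and FOXO3, a transcription factor that AKT restrains, was at 63.2 ± 10.3 and 74.1 ± 5.4 (SD, n = 3).

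Among the JAK and STAT genes 9 of 11 were tested, 1 was called, and the median log2 fold change was 0.03 (-0.10 without DMSO 1 to 0.09 without DMSO 3). JAK2, the kinase of several cytokine receptors that also activates STAT5, had 59.6, 53.9 and 56.4 CPM in DMSO and 39.4, 43.0 and 42.5 in EZH2i. The groups were well separated, and JAK2 fell with a log2 fold change of -0.44 (SE 0.11, edgeR adjusted p = 0.0338). Its log2 fold change ranged from -0.47 to -0.40 over the alternatives, but the adjusted p passed 0.05 without DMSO 1, DMSO 2, DMSO 3, EZH2i 2 or EZH2i 3, reaching 0.134. JAK1, at 106 ± 5.74 CPM under DMSO and 118 ± 2.74 under EZH2i (SD, n = 3), was the most abundant of the list over all 6 libraries, while in DMSO alone STAT5A stood above it.

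Receptors that signal to STAT5 were sparse. Of 10, 3 were tested: EPOR, KIT and IL2RG. GHR, PRLR, CSF2RA and IL7R had no read in any library, which at 3 reads per library allows up to 0.340 to 0.469 CPM. IL3RA and CSF2RB had at most 3 reads in a library. KIT, the stem cell factor receptor, had 16.7, 15.8 and 16.5 CPM in DMSO and 20.7, 24.0 and 30.2 in EZH2i. All EZH2i libraries were above all DMSO libraries, with a log2 fold change of 0.61 (SE 0.16, edgeR adjusted p = 0.0372). The call was lost without DMSO 1, DMSO 2, DMSO 3, EZH2i 2 or EZH2i 3, with an adjusted p of up to 0.147, and with DESeq2. EPOR, the erythropoietin receptor, was at 10.7 ± 2.39 CPM under DMSO and 11.7 ± 1.52 under EZH2i.

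All 16 negative regulators were tested and none was called, with a median log2 fold change of 0.05 that ran from -0.01 without EZH2i 2 to 0.13 without EZH2i 1. SOCS1, a feedback inhibitor of JAK kinases that is also in the list of STAT5 targets, was called lower without DMSO 3 (-0.73, adjusted p = 0.0489) and with no filter (-0.51, adjusted p = 0.0426), against -0.48 (adjusted p = 0.227) with all libraries. PTPN1, a tyrosine phosphatase, was the most abundant at 473 ± 42.0 CPM under DMSO and 504 ± 32.7 under EZH2i, and PTPN2, its relative, was at 78.1 ± 8.81 and 69.0 ± 9.98 (SD, n = 3). Of the 18 STAT5 targets, the 5 described above included, 16 were tested, 8 with a log2 fold change above 0 and 8 below, and BCL2L1 was the one called. Their median was -0.03, and ran from -0.14 without EZH2i 3 to 0.07 without EZH2i 1. Called targets were BCL2L1 and CCND1, both higher, without EZH2i 1, BCL2L1 and, lower, SOCS1 without DMSO 3, and none without DMSO 1 or DMSO 2. With no filter they were BCL2L1, higher, and PIM1 and SOCS1, lower. OSM and IL2RA had no read in any library.

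Of the partners of MYC 10 of 11 were tested and none was called, with a median log2 fold change of -0.05 (-0.10 without EZH2i 2 to 0.01 without EZH2i 3). MAX, the obligate partner, was at 78.6 ± 5.15 CPM under DMSO and 68.2 ± 13.3 under EZH2i, and MGA at 60.6 ± 2.36 and 73.2 ± 14.7 (SD, n = 3). Without EZH2i 1, MXD4 was called higher (0.39, adjusted p = 0.0402). Of 33 MYC targets 32 were tested, 26 of them with a log2 fold change below 0 and 6 above, with a median of -0.16 (-0.12 without EZH2i 1, when 1 was called, lower), beside -0.00021 over all tested genes, of which 6186 of 12364 were below 0. The genes share the 6 libraries and are not independent replicates.

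TCOF1 and RCL1 were the MYC targets that were called, both lower. TCOF1, which encodes the nucleolar protein treacle, had 120, 144 and 144 CPM in DMSO and 108, 92.6 and 102 in EZH2i. The groups did not overlap, and the log2 fold change was -0.43 (SE 0.11, edgeR adjusted p = 0.0339). RCL1, which acts in ribosomal RNA processing, had 83.7, 83.9 and 88.9 CPM in DMSO and 50.7, 59.3 and 72.6 in EZH2i. Those groups did not overlap either, and the log2 fold change was -0.49 (SE 0.12, edgeR adjusted p = 0.0334). The call of TCOF1 was lost without DMSO 2, DMSO 3, EZH2i 2 or EZH2i 3, with an adjusted p of up to 0.143, and that of RCL1 without DMSO 1, DMSO 2, DMSO 3, EZH2i 1 or EZH2i 2, with an adjusted p of up to 0.116. The most abundant targets, the nucleolar proteins NCL and NPM1, were at 1044 ± 54.7 and 963 ± 56.2 CPM under DMSO and 1016 ± 166 and 930 ± 63.0 under EZH2i (SD, n = 3), and neither was called.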

How the data were processed

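Per the labels and the study's methods, RNA from 3 separate cultures per group was made into QuantSeq 3′ libraries. The authors aligned the reads to GRCh38 and deposited raw counts per Ensembl gene for each library; the submitters' processing notes name STAR 2.6.0c and HTSeq 0.11.2. The strand setting is not given in the sources used here. A further deposited table, with fold changes and p-values of the authors' own DESeq2 comparison, was not used. Entries without a gene name (no feature, ambiguous, not unique) held 32.1% to 36.4% of the listed reads, highest in EZH2i 3, and were left out.

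The test was edgeR's quasi-likelihood test (version 4.0.16, run under R 4.3.3; TMM, filterByExpr with a minimum count of 10, glmQLFit and glmQLFTest, two-sided, no replicate term), with Benjamini-Hochberg adjustment over all 12364 tested genes and a threshold of 0.05. The standard error is the log2 fold change's size over the square root of F. Ratios of reads within a library were compared by exact permutation. Alternatives used DESeq2 1.42.0, limma 3.58.1, RLE size factors, other filters, a replicate term, a threshold of 0.01 and each library left out. The 3 tools were tested on simulated data for bias and false calls; earlier pass marks on the share of changed genes recovered were missed by edgeR and DESeq2 and were then dropped. Floors of 3 reads cover counting error only; molecular identifiers are not mentioned in the sources used here.

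Symbols and positions come from GENCODE version 44, which matched 60401 of 60671 identifiers; promoters come from RefSeq. The 10 genes and the lists were chosen with earlier results of these data known. Genes named in the text are the 10, called genes of the lists, the 2 most abundant tested genes of each list by the mean of all 6 libraries, called genes within 500 kb of BCR or ABL1, the gene most similar to each of the 10, and some named after their values were seen. The latter include markers of cell types, genes without reads or near the floor, and genes called only in an alternative. They also include BCL6, PIM3, MCL1, MAPKAPK3, SOCS2-AS1, AK3, NUP214, PLPP7, MMP11, ZNF70, SMARCB1 and the genes with a motif match. Some genes that meet this rule or belong to the lists are not reported here.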

Additional observations from a re-analysis of the deposited data

How the results depend on the processing

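All genes called numbered 527 as reported, 529 with RLE size factors, 428 with DESeq2 (290 higher, 138 lower), 512 with limma-voom, 928 with no filter on low counts (579 higher, 349 lower), 410 with at least 10 reads in every library, 148 at an adjusted p under 0.01, and 209 to 536 with 1 library left out. Of the 10 genes 1 was called as reported, 2 with no filter (PIM1 lower, -0.49), 0 at an adjusted p under 0.01, and 0 to 1 with 1 library left out. Pathway genes called numbered 8 as reported (5 higher, 3 lower). They numbered 6 of 140 tested with DESeq2 (2 higher, 4 lower), where 2.95% of all 14531 tested genes were called. With no filter 16 of 148 were called (8 higher, 8 lower), where 3.54% of all 26226 tested genes were called. The balance of directions thus did not hold. The number of pathway genes called was 0 at an adjusted p under 0.01, and 0 to 14 with 1 library left out. The BCL2L1 log2 fold change was 0.49 to 0.79 with 1 library left out. That of MYC ran from -0.14 to 0.40, below 0 without DMSO 2 (-0.03) and DMSO 3 (-0.14). Without EZH2i 1, PIM2 (0.23), MCL1 (0.019), PIM3 (0.017) and the log2 STAT5B to STAT5A ratio (-0.043) changed sign; with 1 library left out their lowest values were -0.32, -0.41, -0.29 and -0.043, and the ratio's highest 0.42. The ABL1 to BCR log2 ratio ran from -0.40 to -0.09 with 1 library left out. With the replicate block, 599 genes (4.84% of those tested), 10 of 137 tested pathway genes and 1 of the 10 genes were called. Same-numbered libraries correlated at -0.05 to -0.02 in their deviations from the group means. Such correlations cannot decide whether the cultures were paired by design. The causes were not tested. Of the 10 genes BCR had the fewest reads, 47 to 81 per library, and some tested pathway genes had fewer.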

Other observations

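JAK2 and RCL1, both called lower in EZH2i, are neighbours on chromosome 9, a point noticed after their values were seen and not tested. RCL1 ends 98.5 kb before JAK2 begins, on the same strand (hg38). Within 500 kb of JAK2, 8 of 42 other annotated genes were tested, with a median log2 fold change of -0.17, 2 above 0 and 6 below, and RCL1 was the one called. AK3, a mitochondrial adenylate kinase gene 242 kb from JAK2 that was also named after its values were seen, was at 103 ± 4.78 CPM under DMSO and 99.8 ± 5.14 under EZH2i (SD, n = 3), a log2 fold change of -0.04 (edgeR adjusted p = 0.864).

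The tested neighbours of ABL1 had a median log2 fold change of 0.29, with 6 of 9 above 0. Those of BCR had a median of 0.48, with 6 of 7 above 0. PLPP7, 1 of the 6 near ABL1, was at 0.89 ± 0.61 CPM under DMSO and 1.95 ± 0.49 under EZH2i (SD, n = 3). At that DMSO level it passed the filter on low counts through the EZH2i libraries, so the tally for ABL1 is not free of the filter. Genes at low levels also entered the tally for BCR. MMP11 was at 1.46 ± 0.23 CPM under DMSO and 2.07 ± 0.64 under EZH2i (SD, n = 3). ZNF70 was at 1.83 ± 0.68 CPM under DMSO and 3.62 ± 1.12 under EZH2i. The part of the filter in the tally for BCR was not tested. NUP214, a nuclear pore gene 238 kb from ABL1, was at 369 ± 23.8 CPM under DMSO and 400 ± 35.4 under EZH2i, and was the 1 tested neighbour with a higher mean level than ABL1. SMARCB1, a SWI/SNF subunit gene 469 kb from BCR, was at 35 ± 3.46 CPM under DMSO and 28.1 ± 1.16 under EZH2i (SD, n = 3), a log2 fold change of -0.31 (edgeR adjusted p = 0.186), the 1 below 0 among the neighbours of BCR.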
